A study of Mus musculus with 6 samples.

Results

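The 38 genes described here carry fatty acids from the blood into heart muscle and oxidise them in mitochondria and peroxisomes. They were chosen by name, from a fixed list of symbols for uptake, activation, the carnitine shuttle, beta oxidation, electron transfer and the transcription factors that control these steps. Each of the 38 was present among the 16199 gene symbols in the deposited table. Of these, 37 passed the filter on low values (a 6-library mean of 1 or more), which left 14025 tested genes. The exception was Ppara.

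Poly(A)-enriched RNA was sequenced from infarcted mouse myocardium at 7 days after the left anterior descending coronary branch was tied off, an operation that all the mice had undergone. There were 3 libraries labelled Itih5 knockdown and 3 libraries of wild-type mice. The design asks how lowering ITIH5, a secreted protein that binds hyaluronan in the matrix, bears on scarring and immune cells after infarction. The sources used here do not give the strain, sex or age of the mice, how Itih5 was knocked down or in which cells. The labels do not tie libraries to animals, so a p-value reflects only how these libraries scatter, and that scatter may be technical. Values are on a scale close to TPM, by the name the authors gave the table. TPM is a length-corrected share of reads, but length correction was not tested here, and each comparison of values between genes rests on it. How many reads stand behind a value is unknown.

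As background, the adult heart draws most of its energy from long-chain fatty acids. They are released from lipoproteins, taken up, bound to carrier proteins, coupled to coenzyme A, passed through the mitochondrial membranes as carnitine esters and shortened by repeated cycles of dehydrogenation, hydration, a second dehydrogenation and thiolysis. Damaged and failing heart muscle is known for lower expression of this pathway and a turn towards glucose, and scar tissue, fibroblasts and macrophages express less of its muscle-type isoforms than heart muscle cells do.

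The labels were checked first. Itih5 was at 18.4, 10.5 and 19.96 in the libraries labelled knockdown, against 9.73, 13.1 and 17.2 in the wild-type libraries. The groups overlapped, and the labelled knockdown group had the higher mean (log2 difference of 0.26, SE 0.27, limma adjusted p = 0.645; exact two-sided permutation p = 0.4, where 0.1 is the smallest that 3 against 3 libraries allow). The knockdown was thus not visible as a lower transcript level, and every direction below refers to the labels.

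One library stood apart for heart muscle genes, and a pair of libraries for other lists. The 18 heart muscle markers (sarcomere and calcium-handling genes) summed to 29902, 14253 and 8553 in replicates 1, 2 and 3 labelled knockdown, against 10104, 10020 and 8973 in wild type. Replicate 1 labelled knockdown was thus far above the other 5 libraries. Replicate 2 of that group was also above each wild-type library, by less, and replicate 3 was the lowest. The same replicate 1 was lowest for 14 macrophage markers, which summed to 5030, 9996 and 8524 against 14028, 10944 and 10555. Without it, 14 of the 14 macrophage markers still had a lower mean. It was highest for the 13 mitochondrially encoded genes, with 378415, 142602 and 201898 against 134663, 107626 and 98068. Myh6, the alpha myosin heavy chain, was at 1214, 354 and 367 against 265, 277 and 272, and Tnnt2, cardiac troponin T, at 2444, 1913 and 1209 against 1504, 1493 and 1011. Replicates 1 and 2 labelled knockdown were both low for the 7 B cell markers, at 539, 508 and 2109 against 2579, 1968 and 3369, and for the 8 mesothelial markers, at 20.1, 35.3 and 178 against 87.7, 131 and 114. The 5 erythroid genes summed to 2579, 346 and 1039 against 668, 324 and 252, highest in replicate 1. That library also differed in its lowest values. It alone had values above 0 and under 0.2, for 1077 genes, and it had 211 genes at 0, where the other 5 libraries had 731 to 1080. Whether it was processed differently is not given in these sources. Each of the 18 heart muscle markers had a value above 0 in every library. That shows heart muscle RNA in each of them, and not how much of the tissue was infarct. In whole tissue, fewer cells of a type and less RNA per cell cannot be told apart.

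None of the 37 tested members passed the test between the groups. With limma and Benjamini-Hochberg adjustment over all tested genes, 0 members were called higher and 0 lower, where 0.0% of all tested genes were called in either direction, and the adjusted p of the members ran from 0.296 to 0.969. Of the 37, 27 had a higher mean in the libraries labelled knockdown, where 50.8% of all tested genes did, and 10 had a lower one. The median log2 difference of the members was 0.17, beside 0.00 over all tested genes. The 95% interval of the difference held 0 for 36 of the 37 members. With each library scaled to the same column sum, the median of all tested genes moved to -0.13 and that of the members to 0.03, and 8 members with a higher mean took a lower one, which left 19 higher and 18 lower. With library quality weights the median was 0.05, with 21 higher and 16 lower.

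These higher means came with a single library. Of the 37 members, 26 were highest in replicate 1 labelled knockdown, where 25.8% of all tested genes were. Without that library, 12 members had a higher mean and 25 a lower one, where 50.8% of all tested genes were higher. The groups then did not overlap for 3 members that were higher and 9 that were lower, where 16.7% and 11.9% of all tested genes were so placed. At an unadjusted p under 0.05 there were 1 higher member, Cpt1b, and 3 lower ones, Acsl4, Acadvl and Hadha, where 6.59% and 3.87% of all tested genes were. The median log2 difference of the members was then -0.04, and 15 members changed the sign of their difference. The values of a member also spread more widely among the libraries labelled knockdown, with a larger SD there than in wild type for 32 of the 38 members, where 62.1% of all tested genes had one.

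**Figure D1:**
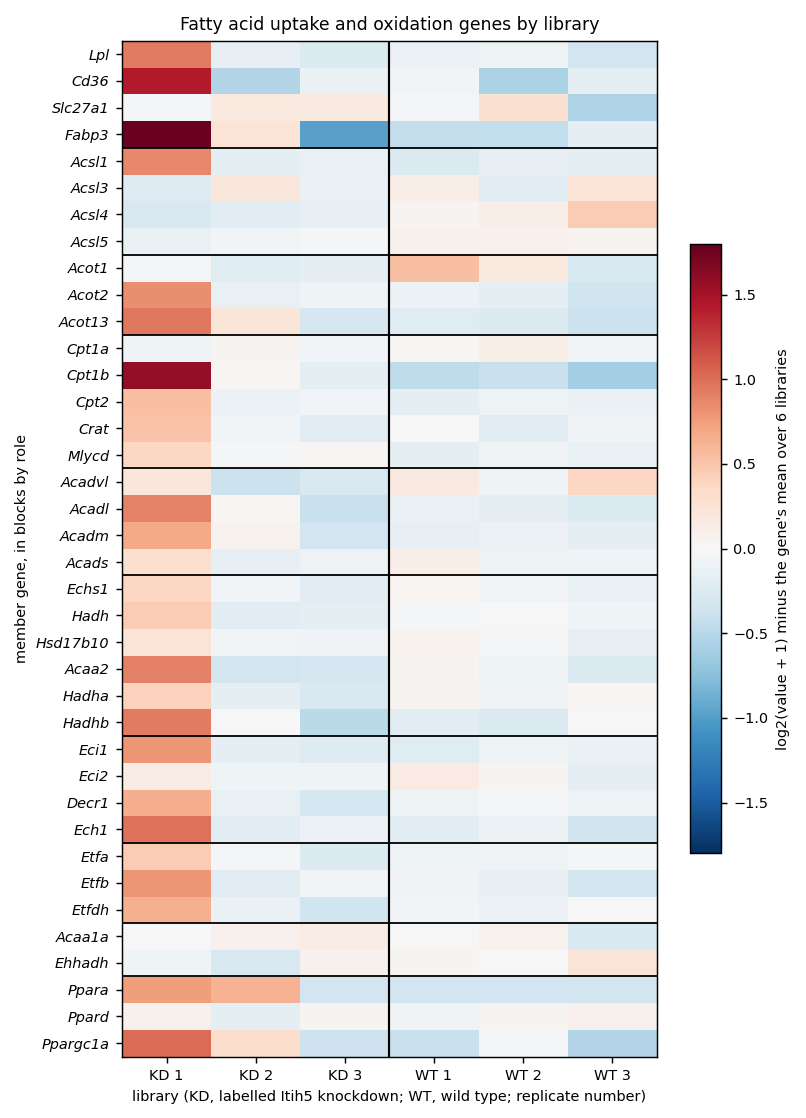
Each cell shows a member's log2(value + 1) in 1 library after subtracting the gene's 6-library mean, with blocks of genes by role and the libraries labelled Itih5 knockdown (KD) left of the wild-type ones (WT). The KD 1 column is the highest for 27 of the 38 members, Ppara included, while Slc27a1, Acsl3, Acsl4, Acsl5, Cpt1a, Acaa1a and Ehhadh are not raised there.

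At an unadjusted p under 0.05, 0 members were higher and 1 was lower, where 8.29% and 6.55% of all tested genes were (1162 and 919 genes). That 1 member was Acsl4. The groups did not overlap for 4 members, higher for Cpt1b and Mlycd and lower for Acsl4 and Acsl5, where 12.6% and 9.88% of all tested genes were so placed. The members' shares were below or near these. With equal column sums or with quantile normalization 1 was higher and 3 were lower without overlap, and with equal sums without mitochondrially encoded genes 4 were higher and 2 lower. Without replicate 1 labelled knockdown, 1 higher and 3 lower members had an unadjusted p under 0.05. There were 1 and 1 without replicate 2, and 6 and 1 without replicate 3. The groups did not overlap for 3 higher and 9 lower members without replicate 1, 6 and 2 without replicate 2, and 8 and 3 without replicate 3. Without wild-type replicate 2 these were 7 and 2. The direction of these counts thus turned with the library left out, and a group of 2 libraries overlaps less often by construction. When a library was left out, shares over all tested genes were computed only for replicate 1 labelled knockdown. The other counts have none beside them and are not read as a result about the members. Over all tested genes, 13 passed the adjusted threshold, all lower, without replicate 3 labelled knockdown, and 2, both lower, without wild-type replicate 2, none of them a member.

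Fabp3, Lpl and Cd36, genes of uptake and binding, had the 3 highest mean values of the members. Fabp3, which encodes the heart fatty acid-binding protein that carries fatty acids through the cytoplasm, was at 2619, 911 and 388 in the libraries labelled knockdown, against 566, 562 and 679 in wild type. The libraries labelled knockdown lay both above and below the wild-type range. The log2 difference was 0.70 (SE 0.61, 95% interval -0.73 to 2.13, limma adjusted p = 0.570), and -0.01 without replicate 1 labelled knockdown. Cd36, the fatty acid translocase of muscle, fat, capillary and macrophage membranes, was at 888, 229.8 and 303 against 320.4, 221 and 295 in wild type. Apart from that replicate 1 the groups lay together (log2 difference of 0.52, SE 0.47, limma adjusted p = 0.581). Lpl, the lipoprotein lipase that frees fatty acids from circulating triglyceride, was at 977, 457 and 429 against 474, 476 and 399, again with only replicate 1 labelled knockdown above wild type (log2 difference of 0.36, SE 0.31, limma adjusted p = 0.560). Slc27a1, a fatty acid transport protein with acyl-CoA synthetase activity, did not follow them, at 47.5, 54.0 and 53.9 against 46.8, 58.3 and 32.2 (log2 difference of 0.21, SE 0.20).

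Promoter sequences of 4 members are shown because these genes behaved differently across the libraries: Fabp3 and Cd36 were high in replicate 1 labelled knockdown, Cpt1a was not, and Acsl4 had the smallest p. Each is the 250 bases before 1 RefSeq start of the gene, the first listed, in build GRCm38.p6. The Cd36 window lies inside the annotated gene, 17781690 to 17888801, and the Cpt1a window past the annotated start at 3322334. Part of the Fabp3 window lies past the annotated start at 130308595. Capitals mark the hexamer AGGTCA, the core of sites that PPAR and other nuclear receptors bind, on either strand.
Fabp3, chr4:130308488-130308737, plus strand: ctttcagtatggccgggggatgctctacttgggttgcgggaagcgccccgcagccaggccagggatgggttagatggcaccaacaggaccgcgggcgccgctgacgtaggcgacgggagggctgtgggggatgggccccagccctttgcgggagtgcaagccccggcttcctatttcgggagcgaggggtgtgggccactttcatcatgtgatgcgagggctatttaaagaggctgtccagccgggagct
Cd36, chr5:17835897-17836146, minus strand: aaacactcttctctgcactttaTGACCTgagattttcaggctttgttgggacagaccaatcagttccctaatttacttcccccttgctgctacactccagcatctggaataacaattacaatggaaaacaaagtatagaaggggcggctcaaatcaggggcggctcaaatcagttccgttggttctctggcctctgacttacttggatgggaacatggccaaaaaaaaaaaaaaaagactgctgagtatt
Cpt1a, chr19:3323051-3323300, plus strand: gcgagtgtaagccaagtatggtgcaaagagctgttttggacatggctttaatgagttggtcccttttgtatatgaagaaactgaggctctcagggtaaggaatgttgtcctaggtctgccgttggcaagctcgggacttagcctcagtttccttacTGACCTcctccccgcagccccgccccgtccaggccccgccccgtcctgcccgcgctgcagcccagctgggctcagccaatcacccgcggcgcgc
Acsl4, chrX:142390536-142390785, minus strand: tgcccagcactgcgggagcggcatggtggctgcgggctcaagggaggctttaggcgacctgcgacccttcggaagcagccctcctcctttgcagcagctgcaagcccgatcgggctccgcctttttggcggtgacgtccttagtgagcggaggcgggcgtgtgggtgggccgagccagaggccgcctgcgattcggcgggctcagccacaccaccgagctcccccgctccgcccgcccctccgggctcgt

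The hexamer was found in the windows of Cd36 and Cpt1a and not in those of Fabp3 and Acsl4. RefSeq promoters matched 32 of the 38 members. AGGTCA, on both strands, was in the window of 5 of these 32, or 15.6%, beside 13.8% of 27025 promoters of the same length. The 5 were Acadm, Acadvl, Cd36, Cpt1a and Echs1. The direct repeat AGGTCANAGGTCA and the ERR element TCAAGGTCA, which both contain the hexamer, were in 0 of the 32, beside 0.037% and 0.366% of all promoters. A match is a run of letters in this window and no measurement of binding.

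The acyl-CoA synthetases, which couple fatty acids to coenzyme A, differed among themselves. Acsl1, the main form in heart muscle, was at 50.2, 24.0 and 24.9 in the libraries labelled knockdown, against 22.4, 24.4 and 24.1 in wild type. Only replicate 1 labelled knockdown left the narrow range of the other 5 (log2 difference of 0.38, SE 0.26, limma adjusted p = 0.486). Acsl4, which prefers arachidonic acid and is expressed in many cell types, was at 15.3, 16.3 and 16.96 against 19.5, 20.7 and 26.4, with the groups apart. It had the smallest p of all members (log2 difference of -0.42, SE 0.13, 95% interval -0.72 to -0.12, unadjusted p = 0.0129), and its limma adjusted p of 0.296 missed the threshold. Acsl5, a form of mitochondrial and endoplasmic reticulum membranes, was at 37.3, 39.5 and 39.9 against 42.98, 43.2 and 42.5, with the groups apart by a small margin (log2 difference of -0.14, SE 0.08, limma adjusted p = 0.419). Acsl3, a form of the endoplasmic reticulum and lipid droplets, ran from 8.28 to 11.6 against 8.41 to 11.8 (log2 difference of -0.09, SE 0.17). Acsl4 lies on the minus strand of chromosome X, from 142317993 to 142390535 in GRCm38, the assembly behind mm10.

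The thioesterases, which release free fatty acids from acyl-CoA, had very unequal values. Acot13, a mitochondrial form, was at 374, 225 and 157 in the libraries labelled knockdown, against 166, 163 and 148 in wild type, so that replicates 1 and 2 lay above the wild-type range and replicate 3 inside it (log2 difference of 0.57, SE 0.29, limma adjusted p = 0.374). Acot2, another mitochondrial form, was at 21.5, 10.6 and 10.98 against 10.7, 10.3 and 8.85 (log2 difference of 0.42, SE 0.26, limma adjusted p = 0.441). Acot1, the closely similar cytosolic form, was near the lowest values that the table resolves, at 2.31, 1.92 and 2.00 against 3.92, 2.82 and 1.79. Acot1 and Acot2 lie 15616 bases apart on the plus strand of chromosome 12 and have near-identical coding sequences, so the way reads were shared between them is uncertain and so are both values.

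The carnitine shuttle held the member with the largest difference. Cpt1b, the muscle form of carnitine palmitoyltransferase 1, which admits long-chain fatty acids to mitochondria, was at 136, 46.1 and 39.9 in the libraries labelled knockdown, against 32.2, 33.8 and 29.0 in wild type. All 3 of the libraries labelled knockdown lay above the wild-type range, replicate 1 by far the most. The log2 difference was 0.97 (SE 0.42, 95% interval -0.02 to 1.97, unadjusted p = 0.0529, limma adjusted p = 0.340), and 0.43 without that replicate 1 (SE 0.11, limma adjusted p = 0.455). Cpt1b lies on the minus strand of chromosome 15, from 89416405 to 89425863, and overlaps the gene model Gm44502 on the same strand, so reads of the 2 models cannot be told apart.

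Cpt1a, the form of liver and many non-muscle cells, did not share this pattern. It was at 55.8, 60.7 and 56.9 in the libraries labelled knockdown, against 59.6, 62.98 and 56.8 in wild type (log2 difference of -0.05, SE 0.09, 95% interval -0.25 to 0.16, limma adjusted p = 0.80). The ratio of Cpt1b to Cpt1a within a library, in which a scaling factor of that library cancels, was 2.43, 0.759 and 0.702 against 0.540, 0.536 and 0.511. Cpt1b thus had the higher value of the pair in replicate 1 labelled knockdown, and Cpt1a in replicates 2 and 3 labelled knockdown and in all wild-type libraries. The ratio of Acsl1 to Acsl4 likewise did not overlap, at 3.27, 1.47 and 1.47 against 1.15, 1.18 and 0.913. These were 2 of 5 ratios computed after the values were seen, and they were not tested; those of Acadl to Acadm, Hadhb to Hadha and Etfa to Etfb overlapped between the groups.

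**Figure D2:**
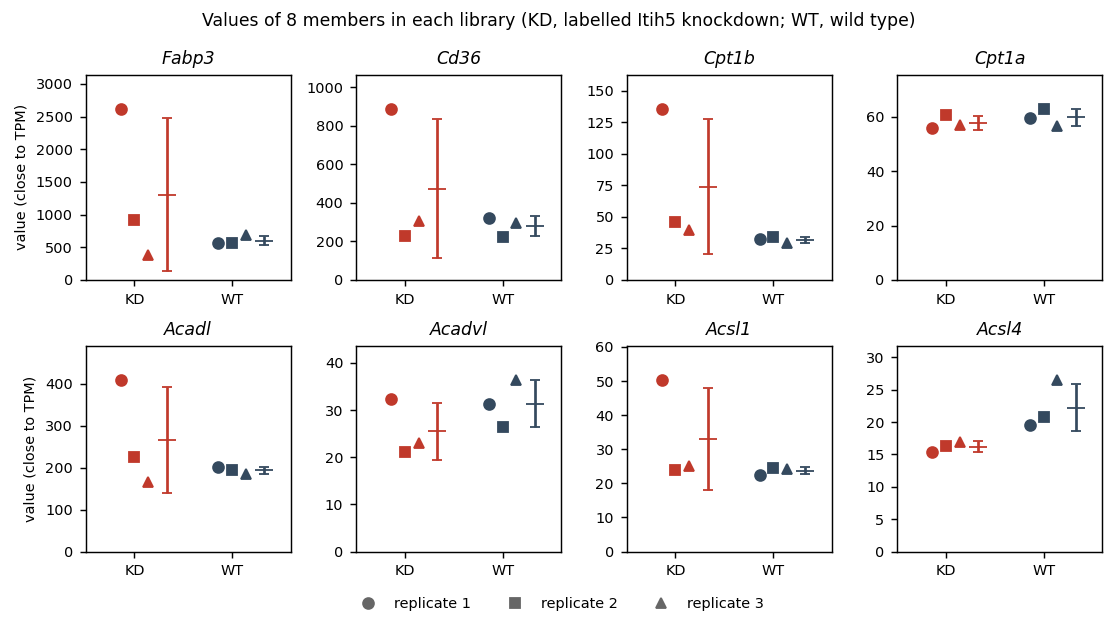
Values on the deposited scale, close to TPM, of 8 members in the 3 libraries labelled Itih5 knockdown (KD) and the 3 wild-type libraries (WT), 1 symbol per replicate number, with the mean and SD beside them. Replicate 1 of KD is far above the others for Fabp3, Cd36, Cpt1b, Acadl and Acsl1, Cpt1a is alike in the 6 libraries, and Acsl4 is lower in each KD library, at 15.3 to 16.96 against 19.5 to 26.4.

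The remaining genes of the shuttle stayed close to wild type outside replicate 1 labelled knockdown. Cpt2, which returns acylcarnitine to acyl-CoA on the matrix side, was at 45.9, 28.8 and 29.9 against 27.3, 29.1 and 28.7 (log2 difference of 0.26, SE 0.18). Crat, the carnitine acetyltransferase that buffers acetyl-CoA, was at 51.7, 34.6 and 30.9 against 36.2, 30.9 and 34.1 (log2 difference of 0.17, SE 0.19). Mlycd, which removes the CPT1 inhibitor malonyl-CoA, was at 21.8, 16.4 and 16.97 against 14.6, 15.97 and 15.2. Its groups did not overlap, but replicate 2 labelled knockdown was above wild-type replicate 2 by less than 1 of the steps in which low values come (log2 difference of 0.24, SE 0.13, limma adjusted p = 0.386).

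The acyl-CoA dehydrogenases open each cycle of beta oxidation and differ in the chain length they accept. Acadl, for long chains, had the highest values of the 4, at 408, 225 and 166 in the libraries labelled knockdown, against 201, 194 and 185 in wild type (log2 difference of 0.36, SE 0.30, limma adjusted p = 0.558). Acadm, for medium chains, was at 214, 139.6 and 105 against 120.1, 124 and 119 (log2 difference of 0.27, SE 0.24). For both genes replicate 3 labelled knockdown was the lowest of the 6 libraries and replicate 1 the highest, the order in which the heart muscle markers stood, and without replicate 1 the log2 differences were -0.00 for Acadl and 0.00 for Acadm. Acads, for short chains, was at 55.3, 40.4 and 41.9 against 48.9, 42.2 and 42.3 (log2 difference of 0.03, SE 0.14).

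Acadvl, the very long-chain form bound to the inner membrane, went apart from the other dehydrogenases. It was at 32.4, 21.1 and 22.95 in the libraries labelled knockdown, against 31.3, 26.3 and 36.3 in wild type (log2 difference of -0.30, SE 0.18, limma adjusted p = 0.444). Replicates 2 and 3 labelled knockdown lay below the wild-type range and replicate 1 inside it. Without replicate 1 the log2 difference was -0.48 (unadjusted p = 0.0170, limma adjusted p = 0.457).

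The later steps of the cycle showed no call. Hadha and Hadhb encode the subunits of the mitochondrial trifunctional protein, which carries out these steps on long chains. They lie head to head on chromosome 5, with 85 bases between the end of Hadha at 30155162 and the start of Hadhb at 30155248. Hadha was at 124, 82.7 and 76.8 in the libraries labelled knockdown, against 95.8, 89.2 and 95.5 in wild type (log2 difference of -0.02, SE 0.18), with replicates 2 and 3 below the wild-type range. Hadhb was at 156, 81.7 and 57.9 against 71.3, 67.6 and 80.8 (log2 difference of 0.31, SE 0.33). Despite sharing a start region, the genes were thus not raised alike in replicate 1 labelled knockdown, at 1.38 times the median of the other 5 libraries for Hadha and 2.19 times for Hadhb.

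Of the enzymes for shorter chains, Acaa2, the thiolase that splits off acetyl-CoA, was at 242, 102 and 104 in the libraries labelled knockdown, against 132, 120.2 and 108 in wild type (log2 difference of 0.19, SE 0.32). It was above wild type in replicate 1 and below it in replicates 2 and 3. Echs1, the short-chain enoyl-CoA hydratase, Hadh, the hydroxyacyl-CoA dehydrogenase, and Hsd17b10, a dehydrogenase of branched-chain and steroid substrates that also serves mitochondrial transfer RNA processing, had log2 differences of 0.08 (SE 0.15), 0.06 (SE 0.18) and 0.08 (SE 0.12). Replicate 1 labelled knockdown was the highest library for each of the 6 genes of these steps, and without it the 6 log2 differences ran from -0.23 for Hadha to -0.01 for Hsd17b10.

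Auxiliary enzymes prepare unsaturated chains for the cycle. Ech1, a dienoyl-CoA isomerase, was at 434, 191 and 204 in the libraries labelled knockdown, against 189, 205 and 171 in wild type (log2 difference of 0.45, SE 0.30, limma adjusted p = 0.477). Eci1, the mitochondrial enoyl-CoA isomerase, was at 109, 55.7 and 52.9 against 53.7, 59.2 and 57.4, and Decr1, the dienoyl-CoA reductase, at 79.2, 45.2 and 39.9 against 46.9, 48.9 and 46.7, with log2 differences of 0.27 (SE 0.26) for Eci1 and 0.14 (SE 0.24) for Decr1. In these 3 genes replicate 1 labelled knockdown alone was above wild type. Eci2, a second isomerase found in mitochondria and peroxisomes, was at 36.9, 31.8 and 31.9 against 37.1, 34.7 and 29.7 (log2 difference of -0.01, SE 0.12).

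The electron transfer flavoprotein takes electrons from the dehydrogenases to the respiratory chain. Etfb, its beta subunit, was at 490.1, 244 and 272 in the libraries labelled knockdown, against 271, 255 and 223 in wild type (log2 difference of 0.36, SE 0.26, limma adjusted p = 0.502). Etfa, the alpha subunit, was at 229, 162 and 139.7 against 155, 159.7 and 164 (log2 difference of 0.12, SE 0.18). Etfdh, which passes the electrons on to ubiquinone, was at 52.7, 30.7 and 25.9 against 32.3, 31.0 and 33.2 (log2 difference of 0.11, SE 0.24). For Etfdh and Etfa replicate 3 labelled knockdown was the lowest library and replicate 1 the highest.

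Peroxisomal enzymes and the transcription factors had low or level values. Acaa1a, the peroxisomal thiolase, was at 49.8, 53.0 and 54.9 in the libraries labelled knockdown, against 49.8, 52.6 and 41.3 in wild type (log2 difference of 0.14, SE 0.11). Ehhadh, the peroxisomal bifunctional enzyme, ran from 2.87 to 3.99 against 3.74 to 4.54 (log2 difference of -0.19, SE 0.16). Neither was highest in replicate 1 labelled knockdown.

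Ppargc1a, a coactivator that drives mitochondrial and fatty acid oxidation genes, was at 6.76, 3.85 and 2.00 in the libraries labelled knockdown, against 1.95, 2.83 and 1.71 in wild type. Replicates 1 and 2 labelled knockdown were above wild type (log2 difference of 0.63, SE 0.35, limma adjusted p = 0.402). Ppard, the PPAR form of many tissues, was level, at 16.2, 13.5 and 15.97 against 14.6, 15.97 and 16.3 (log2 difference of -0.04, SE 0.11). Ppara, the nuclear receptor that controls much of this pathway in heart and liver, was listed at 1.14 and 0.965 in replicates 1 and 2 labelled knockdown and at 0 in replicate 3 and in the 3 wild-type libraries. The step between low values was 1.16 and 0.961 in those 2 libraries, so both entries are a single step and carry no difference.

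**Figure D3:**
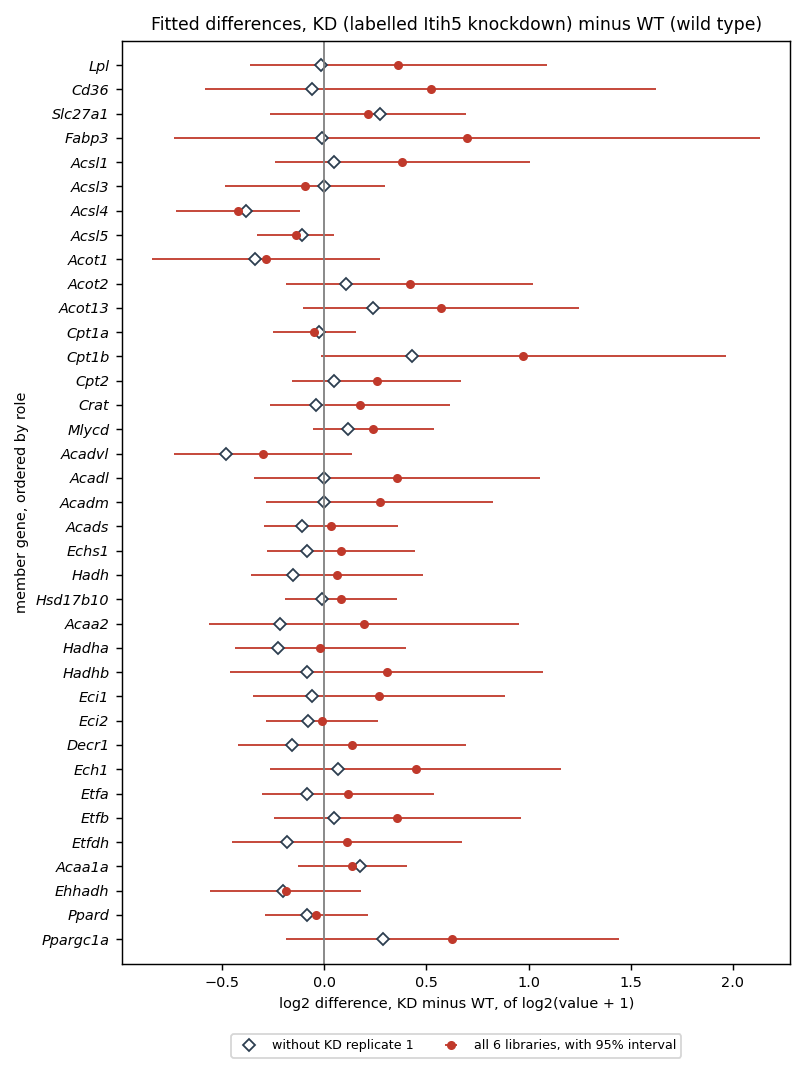
Log2 differences, libraries labelled Itih5 knockdown (KD) minus wild type (WT), of the 37 tested members, with 95% intervals from limma (filled circles) and without KD replicate 1 (open diamonds). The interval leaves 0 for Acsl4 alone, and without KD replicate 1 the median moves to -0.04 from 0.17.

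Replicate 1 labelled knockdown did not raise the members evenly. It was above 2 times the median of the other 5 libraries for 12 members, where 6.08% of all tested genes were, and under that median for 7. The highest multiples were 4.62 for Fabp3, 4.02 for Cpt1b, 3.39 for Ppargc1a and 3.01 for Cd36. The members under the median were Acsl3 (0.770), Acsl4 (0.784), Acsl5 (0.877), Slc27a1 (0.881), Ehhadh (0.898), Cpt1a (0.936) and Acaa1a (0.948). The median multiple was 1.52 over the members, beside 3.25 over the heart muscle markers, 1.89 over 18 nuclear genes of the respiratory chain and 0.99 over all tested genes. Over 10 endothelial markers it was 1.89. This library was singled out after its values were seen.

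The members' summed level was 8327, 3872 and 3201 in the libraries labelled knockdown, against 3604, 3481 and 3461 in wild type, and Fabp3 made up 31.5%, 23.5% and 12.1% of it against 15.7%, 16.1% and 19.6%. As a share of the heart muscle marker sum, the members came to 27.8%, 27.2% and 37.4% against 35.7%, 34.7% and 38.6%. By this share replicates 1 and 2 labelled knockdown had the lowest values. They also had the highest marker sums, the denominator of the share, so this is partly built in. Taken singly, Fabp3 came to 8.76%, 6.39% and 4.54% against 5.61%, 5.61% and 7.57%, highest in replicate 1. Cpt1b came to 0.454%, 0.323% and 0.467% against 0.319%, 0.337% and 0.324%. Acadl was lowest in replicate 1, at 1.36%, 1.58% and 1.94% against 1.99%, 1.94% and 2.06%. The heart muscle markers themselves had a higher mean in 18 of 18 (median log2 difference 0.63, and 0.18 without replicate 1 labelled knockdown), with 0 past the adjusted threshold. With each library's heart muscle score as a covariate, 10 members had a higher and 27 a lower fitted value, the median was -0.10 and none passed; Cpt1b was at 0.30 (SE 0.17) and Acsl4 at -0.37 (SE 0.15).

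**Figure D4:**
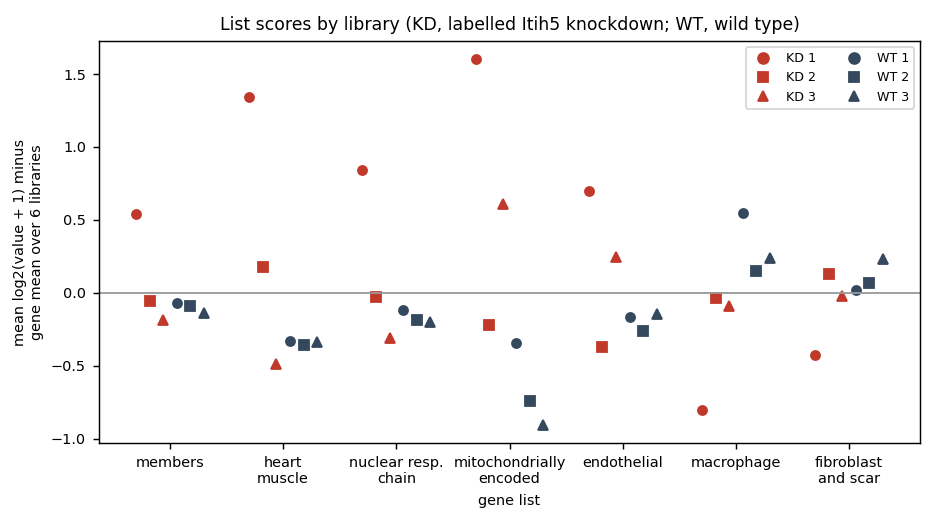
Mean over each list's genes of log2(value + 1) after subtracting each gene's 6-library mean, for the members and 6 other lists, 1 point per library (KD, labelled Itih5 knockdown; WT, wild type; symbols give the replicate number). KD 1 has the highest score for the members (0.54), heart muscle (1.34), endothelial genes (0.70) and both respiratory chain lists. It has the lowest for macrophage (-0.80) and fibroblast genes (-0.43).

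Other cell types that express some members varied as well. The 10 endothelial markers, whose cells express Cd36, summed to 1638, 728 and 1182 in the libraries labelled knockdown, against 846, 823 and 845 in wild type, highest in replicate 1 as Cd36 was. The 9 adipocyte markers, whose cells express Lpl, Cd36 and Acsl1, summed to 34.4, 27.0 and 1486 against 504, 1418 and 724. Replicates 1 and 2 labelled knockdown thus held little of these, with 4 of the 9 at 0 in some library, so the high Lpl, Cd36 and Acsl1 of replicate 1 stood beside low adipocyte markers. Of 10 skeletal muscle genes, 6 were in the table, and they summed to 2732, 706 and 390.2 against 466, 341 and 641, mostly through Acta1 and Ckmt2, which heart muscle also expresses. The macrophage markers had lower means for 14 of 14 and the fibroblast and scar markers for 10 of 12. The part of these cell types in the members' values was not tested.

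The wider pathway gave no call either. Of 87 further genes of fatty acid handling, 82 were in the table and 81 were tested; 0 passed the adjusted threshold, 49 had a higher and 32 a lower mean, with a median log2 difference of 0.06 (0.01 without replicate 1 labelled knockdown), beside 0.00 over all tested genes. At an unadjusted p under 0.05, 3 of the 81 were higher and 3 lower, fewer than the 8.29% and 6.55% of all tested genes. Of the peroxisomal genes, 10 of 15 had a lower mean, where 49.2% of all tested genes did, and 8 of 15 without replicate 1 labelled knockdown. Among them Hsd17b4, the peroxisomal multifunctional enzyme, was at 56.0, 61.6 and 53.9 in the libraries labelled knockdown, against 70.4, 69.6 and 75.1 in wild type, with the groups apart (log2 difference of -0.32, SE 0.09, limma adjusted p = 0.296). Abcd2, a peroxisomal fatty acid transporter, was at 2.47, 4.82 and 4.99 against 5.86, 6.60 and 6.39 (log2 difference of -0.56, SE 0.22, limma adjusted p = 0.322).

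Of the 19 tested partners and targets of PPAR and ERR receptors, 15 had a higher mean, and 13 without replicate 1 labelled knockdown. Of all tested genes 50.8% did in either case. The median log2 difference of these 19 was 0.19, and 0.05 without that library. Rxra, which encodes the widely expressed partner of PPAR receptors, was at 29.1, 27.9 and 28.9 in the libraries labelled knockdown, against 42.1, 32.9 and 37.2 in wild type, again with the groups apart (log2 difference of -0.36, SE 0.11, limma adjusted p = 0.296). Rxrg, the partner form found in muscle, went the other way, at 9.05, 5.78 and 2.99 against 2.93, 2.81 and 2.58 (log2 difference of 0.78, SE 0.31, limma adjusted p = 0.323), in values of only a few steps. Neither gene passed.

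Among genes of uptake, mitochondrial oxidation and lipid droplets, the means were higher for 6 of 12, 13 of 20 and 10 of 15, where 50.8% of all tested genes were. Without replicate 1 labelled knockdown these counts were 7, 9 and 6, where 50.8% of all tested genes were again higher. The median of the lipid droplet genes was then -0.13, beside 0.14 with that library. The triglyceride-rich lipoprotein receptor gene Vldlr was at 21.6, 12.5 and 7.98 in the libraries labelled knockdown, against 6.82, 7.49 and 7.90 in wild type (log2 difference of 0.74, SE 0.30), whereas the transporter gene Slc27a4 was at 14.1, 18.3 and 16.96 against 19.5, 18.8 and 19.0 (log2 difference of -0.21, SE 0.11). Ivd, an acyl-CoA dehydrogenase of leucine breakdown, was at 43.7, 33.7 and 32.9 against 28.3, 31.9 and 25.9 (log2 difference of 0.34, SE 0.14), and Mcee, which handles the product of odd chains, had a log2 difference of 0.25 (SE 0.13). The lipid droplet genes with the smallest p were both lower in mean, Abhd5 at -0.19 (SE 0.09) and the droplet coat gene Plin2 at -0.42 (SE 0.21), and the groups overlapped for Plin2. The limma adjusted p of these 6 genes ran from 0.327 to 0.394.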

How the data were processed

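The deposited table gives 1 value per gene and library, made by the authors. The deposited value is treated as a score close to TPM, scaled by the authors in a way that is not given. The columns sum to 901558 to 1159651, and most low values fall near multiples of a step of 0.895 to 1.16, except 1077 values under 0.2 in replicate 1 labelled knockdown. Sum and step were both largest in that replicate 1, and each sum was 997979 to 1007328 times the step of its library. Per the submitters' processing notes, reads were placed on mm10. The labels name 2 library kits without saying which library each made. The aligner, quantifier, annotation and strand setting were not given in the sources used here, and 18 of the 38 members overlap another annotated gene (GENCODE M21).

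From these values, log2(value + 1) was tested with limma 3.58.1 in R 4.3.3 (intensity trend, Benjamini-Hochberg at 0.05) over 14025 genes with a mean of at least 1; 6 rows of repeated symbols were dropped. The test was tried on simulated data first. Those had independent noise of the same size for every gene and no library standing apart, unlike the data here. How the test acts with such a library was thus not tried. All 38 members are described; of the further pathway genes, the 2 with the smallest p in each list are named. The members and lists were chosen with earlier results of these data known. Alternatives varied the pseudocount, filter, scaling, weights, block and covariate, and left out each library.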

Additional observations from a re-analysis of the deposited data

How the results depend on the processing

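No member passed the adjusted threshold under any of the alternatives run, where the smallest adjusted p of a member was 0.197, and none of the 48 genes recomputed did (the tested members, 10 pathway genes and Itih5). Leaving out 1 library at a time, all tested genes past the threshold ran from 0.0 to 13.0, members at an unadjusted p under 0.05 from 1.0 to 7.0, members whose groups did not overlap from 5.0 to 12.0, and the members' median from -0.04 to 0.32. These member counts turned between mostly higher and mostly lower with the library left out. Shares over all tested genes were computed only for the main fit and without replicate 1 labelled knockdown. The other member counts of this section have no share beside them and are description only. The count at an unadjusted p, 1 as reported, was 2 with equal column sums, 2 with equal sums without mitochondrially encoded genes, 2 with quantile normalization, 3 with library quality weights, which took the members' median to 0.05 with 21 higher and 16 lower, and 4 after adjustment for the heart muscle score, which also took the median to -0.10. Same-numbered libraries deviated together only weakly (correlations 0.0559, 0.0608 and 0.143). For each replicate labelled knockdown this was above its correlations with the other wild-type libraries, which ran from -0.109 to 0.0595. The labels name no pairs, and the numbers were not taken as pairs. With the replicate block the count at an unadjusted p was 3 and the median 0.17, and no call changed.

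Apart from leave-one-out, 489 log2 differences of single genes kept their sign. Those under other filters, without the intensity trend and with the replicate block are the main differences unchanged. Their signs could not change, so the count overstates how stable the signs are. A further 35 changed sign, and the causes were not tested. Adjusted for the heart muscle score these were Lpl -0.10, Cd36 -0.12, Fabp3 -0.31, Acsl1 -0.00858, Crat -0.10, Acadl -0.13, Acadm -0.10, Acads -0.13, Echs1 -0.14, Hadh -0.18, Hsd17b10 -0.0313, Acaa2 -0.29, Hadhb -0.23, Eci1 -0.13, Decr1 -0.24, Etfa -0.15 and Etfdh -0.27. With equal column sums, which took the median of all tested genes to -0.13, they were Acads -0.11, Echs1 -0.059, Hadh -0.078, Hsd17b10 -0.0584, Decr1 -0.00401, Etfa -0.0275, Etfdh -0.0285 and Acaa1a -0.00249. With library quality weights they were Acads -0.11, Echs1 -0.0317, Hadh -0.0529, Hsd17b10 -0.0183, Acaa2 -0.0857 and Etfdh -0.0167. Without mitochondrially encoded genes in the sum they were Hadha 0.0283, Eci2 0.0358 and Ppard 0.00462, and with quantile normalization Hadha 0.0199.

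Leaving out 1 library changed the sign for 20 members, whose log2 differences then ran over Lpl -0.0163 to 0.58, Cd36 -0.0614 to 0.91, Slc27a1 -0.015 to 0.40, Fabp3 -0.0128 to 1.36, Acsl3 -0.22 to 0.000272, Crat -0.0398 to 0.32, Acadl -0.00232 to 0.65, Acads -0.11 to 0.12, Echs1 -0.0855 to 0.20, Hadh -0.15 to 0.18, Hsd17b10 -0.0108 to 0.14, Acaa2 -0.22 to 0.40, Hadha -0.23 to 0.11, Hadhb -0.0854 to 0.62, Eci1 -0.0619 to 0.45, Eci2 -0.0989 to 0.058, Decr1 -0.16 to 0.33, Etfa -0.0859 to 0.27, Etfdh -0.18 to 0.32 and Ppard -0.0847 to 0.0409. With 3 libraries a group and an unknown depth, small differences could not be resolved.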
